A study of Mus musculus with 9 samples.

Results

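The genes described here encode the enzymes that crosslink extracellular matrix: peroxidasin (Pxdn), the 5 lysyl oxidases (Lox, Loxl1, Loxl2, Loxl3 and Loxl4) and transglutaminase 2 (Tgm2). They were chosen by symbol, and all 7 were found among the 35275 Ensembl genes of the read count table. All 7 were also among the 15825 genes with enough counts to be tested. RNA had been sequenced in bulk from the anterior segment of newborn mouse eyes (postnatal day 0), a dissection without the lens that takes in the cornea, the iris and ciliary body, and the structures that drain the eye. The 6 mutant samples were Col4a1+/G1344D, heterozygous for a glycine to aspartate change in Col4a1, which encodes a chain of type IV collagen, and the 3 wildtype samples were Col4a1+/+. Each sample pooled 4 eyes from 2 mice, and the p-values refer to variation among such pools. The strain is not named in the labels. The missense change does not remove the transcript, so RNA levels do not check the genotype labels.

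Newly secreted collagen and elastin are weak until their chains are joined by covalent bonds. Peroxidasin is a haem peroxidase of basement membranes that uses peroxide and bromide to form sulfilimine bonds between type IV collagen molecules, and loss of its function in mice and humans disturbs the cornea and anterior segment. Lysyl oxidases are secreted copper enzymes that oxidise lysine side chains, after which collagen and elastin chains crosslink, and transglutaminase 2 joins glutamine to lysine side chains of fibronectin and other matrix proteins.

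The lysyl oxidases share a catalytic domain with a histidine-rich stretch that holds the copper. Its coding bases are shown for 4 of the 5 family members because they show how far apart the genes are, and so whether reads of one could be counted for another. They were read 5′ to 3′ on the coding strand from GENCODE M21 transcripts, and the 4 histidine codons of each stretch of 36 bases are in capitals.
Loxl1: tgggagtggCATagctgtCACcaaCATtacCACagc
Loxl2: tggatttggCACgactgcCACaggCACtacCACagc
Loxl3: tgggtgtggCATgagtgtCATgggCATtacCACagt
Loxl4: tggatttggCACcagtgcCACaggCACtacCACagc
Among these 4 genes, Loxl2 and Loxl4 were the closest pair, with 34 of 36 identical bases and the same residue at 11 of 12 codons. The other pairs of the 4 had between 24 and 27 identical bases and the same residue at 9 of 12 codons. Even so, no stretch of 50 bases was shared between transcripts of any 2 of the 7 enzyme genes.

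Reads could be shared with genes outside the family. Of the 50-base stretches of Loxl2 transcripts, 42.9% also occur in the pseudogene Gm21451, a near copy, so the split of reads between them is uncertain. Gm21451 itself had between 8 and 38 counts in mutant libraries and between 5 and 12 in wildtype libraries, at most 0.872% of the Loxl2 count of the same library. Loxl3 shares 11.6% of its exonic bases with Htra2 on the opposite strand. Tgm2 shares 8.03% with Rprd1b on the opposite strand and 13.7% with Gm20412, which had 0 counts in every library. The sources used here do not say whether reads were counted by strand, and without it reads of overlapping genes cannot be told apart. Htra2 fell in the mutant by 0.50 on the log2 scale (edgeR adjusted p = 0.0198), and Rprd1b had a log2 fold change of 0.26 (edgeR adjusted p = 0.0663).

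Library totals ran from 28440874 to 35306935 counts in mutants and from 25995340 to 28356439 in wildtypes. The ribosomal RNA gene Gm42418 took between 4.11% and 6.91% of counts in 5 mutant libraries and in wildtype 1, and at most 0.0708% in mutant 2, wildtype 2 and wildtype 3. Genes with longer exons also had higher fold changes: the median log2 fold change was -0.26 in the shortest of 5 equal classes of exon length and 0.21 in the longest. Markers of the labelled tissue were present, with Krt12 of corneal epithelium at 224 ± 22.9 CPM in mutants and 226 ± 37.3 CPM in wildtypes (SD, n = 6 and 3). CPM are counts scaled to library totals adjusted by TMM factors. The summed lens markers ran from 36.5 to 43.4 CPM in mutants and from 48.7 to 55.4 CPM in wildtypes, most of it Bfsp2, at 32.5 ± 2.26 CPM in mutants and 42.5 ± 3.47 CPM in wildtypes. The summed retinal markers ran from 97.1 to 107 CPM in mutants and from 96.9 to 104 CPM in wildtypes, most of it Rbpms. The summed pigment cell markers ran from 13713.5 to 15372 CPM in mutants and from 15441 to 16112 CPM in wildtypes, with Pmel at 7722 ± 532 CPM in mutants and 8343 ± 189 CPM in wildtypes. In these 3 lists Crybb2, Lim2, Rcvrn and Rpe65 had 0 counts, which allows up to 0.0159 CPM over the mutant libraries and 0.037 CPM over the wildtype libraries, and every other member had counts in at least 1 library. Vascular endothelial markers rose in 6 of 7 genes, macrophage markers in 4 of 7 and corneal endothelial markers in 3 of 5, with 0 lower in each list (edgeR), where 19.2% of all tested genes were called in either direction. Keratocyte markers fell in 5 of 8 with 0 higher, and pericyte and smooth muscle markers split, 2 higher and 4 lower of 7. Of erythroid markers 3 of 7 rose and 1 fell, of corneal epithelial markers 1 of 7 rose, of lens markers 1 of 5 tested fell and of cartilage markers 2 of 5 tested fell. By the same test 0 of 6 tested skeletal muscle, 0 of 6 tested pigment cell and 0 of 3 tested retinal markers changed.

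Of the 7 enzyme genes, 3 rose in the mutant and 0 fell (edgeR quasi-likelihood test, Benjamini-Hochberg adjusted p under 0.05 over all tested genes). Peroxidasin, Loxl2 and Tgm2 were the genes that rose, each by less than 1.5-fold. Across all tested genes 19.2% were called, 9.7% higher and 9.47% lower. The median log2 fold change was 0.38 over the 7 enzyme genes and -0.00 over all tested genes, and all 7 values were above 0. The mutant and wildtype groups did not overlap for the same 3 genes, against 10.8% of all tested genes with every mutant library above every wildtype library and 22% with no overlap in either direction. The count rested on single wildtype libraries: without wildtype 1, 0 enzyme genes passed the adjusted test and 4 had an unadjusted p under 0.05 (edgeR), and without wildtype 3 only Tgm2 passed. Across all genes, 538 of 16159 tested were called without wildtype 1 and 1669 of 16166 without wildtype 3, against 3034 of 15825 with all libraries.

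**Figure D1:**
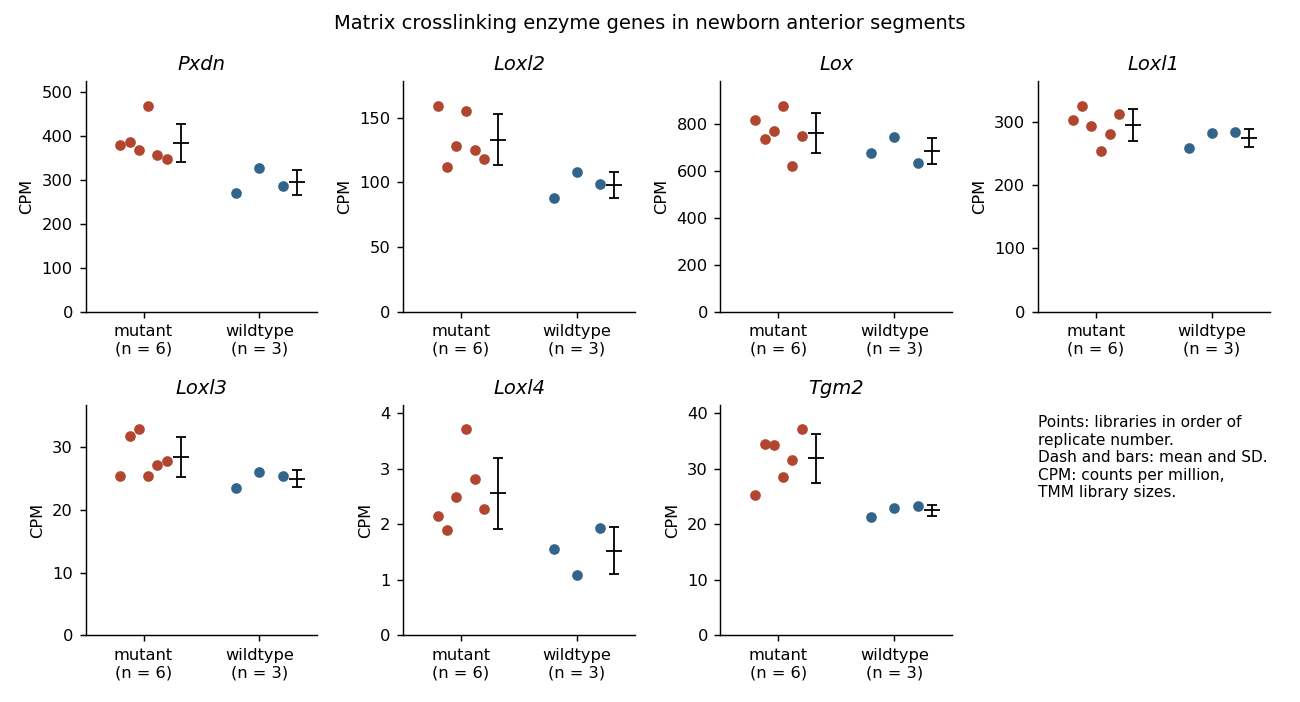
Normalised level (CPM on TMM library sizes, axes from 0) of each enzyme gene in 6 mutant and 3 wildtype libraries, 1 point per library, with the mean and SD beside each group. For Pxdn, Loxl2 and Tgm2 every mutant point lies above every wildtype point, while the groups overlap for Lox, Loxl1, Loxl3 and Loxl4.

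Levels can be compared between genes only per exon length. Lox, the founding lysyl oxidase, which acts on fibrillar collagen and elastin, was the highest of the 7, at 159.8 ± 18.2 CPM per kilobase in mutants and 144 ± 11.8 in wildtypes (SD, n = 6 and 3). Loxl1, which acts on elastin and in humans carries variants linked to exfoliation glaucoma, followed at 89.4 ± 7.57 CPM per kilobase in mutants and 83.4 ± 4.28 in wildtypes. Pxdn stood at 39.9 ± 4.50 CPM per kilobase in mutants and 30.6 ± 2.98 in wildtypes. Loxl2 stood at 24.6 ± 3.63 CPM per kilobase in mutants and 18.2 ± 1.88 in wildtypes. Since 42.9% of its 50-base stretches also occur in Gm21451, reads may be missing from this level, and its place below Pxdn is uncertain. Tgm2 and Loxl3 were neighbours at a lower level, and in mutants their ranges overlapped, with Tgm2, at 6.91 ± 0.943 CPM per kilobase, above Loxl3, at 6.16 ± 0.698, in 5 of 6 libraries. In wildtypes Loxl3 was the higher of the pair in 3 of 3 libraries, at 5.42 ± 0.297 against 4.89 ± 0.222 CPM per kilobase for Tgm2. Both share exonic bases with genes on the opposite strand, and counting by strand is not stated, so the order of this pair is uncertain. Loxl4 was the lowest, at 0.607 ± 0.152 CPM per kilobase in mutants and 0.362 ± 0.101 in wildtypes. No other neighbours in this order overlapped within a group. In wildtypes Lox ranked above 98.1% of tested genes per exon length, and Loxl4 above 11.9%.

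**Figure D2:**
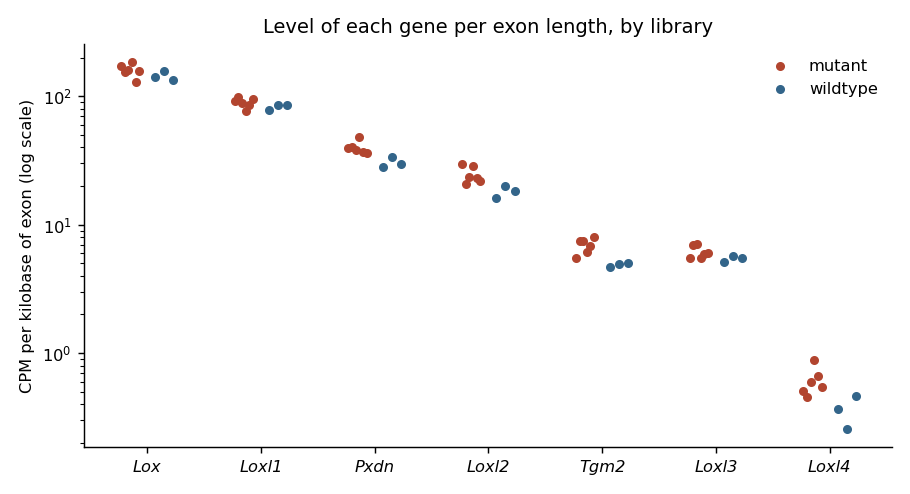
Level per kilobase of exon (CPM per kilobase, log axis) of the 7 enzyme genes, ordered by the mutant mean, with mutant libraries left of wildtype libraries for each gene. Lox is highest and Loxl4 lowest in both genotypes, and only Tgm2 and Loxl3 overlap as neighbours.

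Type IV collagen is the substrate of peroxidasin. Pxdn (ENSMUSG00000020674, chromosome 12, 29937608 to 30017658 of GRCm38, plus strand) had 380, 386, 369, 469, 357 and 349 CPM in mutants 1 to 6, against 271, 327 and 287 CPM in wildtypes 1 to 3. Mutant 4 stood above the other mutants, and the lowest mutant, at 349 CPM, was above the highest wildtype, at 327 CPM. The means were 385 ± 43.4 CPM in mutants and 295 ± 28.8 CPM in wildtypes (SD), or 1.30-fold higher in mutants (log2 fold change 0.38 with SE 0.0977, adjusted p = 0.0136 by edgeR). Permuting the libraries exactly gave a two-sided p = 0.0119 for log2 CPM, the smallest that 84 splits allow. Depth did not limit this gene, with 7357 to 13160 counts per library.

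Pxdn has 9648 bp of exon, longer than 89.9% of tested genes. With the trend of expression on exon length removed from each library, its log2 fold change was 0.20 and it did not pass the test (edgeR adjusted p = 0.0912, over a range of 0.000895 to 0.105 across all alternatives). It also did not pass without wildtype 1 (log2 0.33, adjusted p = 0.105, edgeR) or without wildtype 3 (log2 0.37, adjusted p = 0.0625, edgeR). Within the libraries high in Gm42418, Pxdn ran from 349 to 469 CPM in 5 mutants, against 271 CPM in wildtype 1. Within those low in it, Pxdn was 386 CPM in mutant 2, against 287 and 327 CPM in the pair of wildtypes.

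Loxl2 is the family member known to crosslink the amino-terminal domain of type IV collagen, beside its action on fibrillar collagen. Loxl2 (ENSMUSG00000034205, chromosome 14, 69609068 to 69695834, plus strand) had 159, 112, 128, 155, 125 and 118 CPM in mutants 1 to 6, against 87.9, 108 and 98.7 CPM in wildtypes 1 to 3. Mutants 1 and 4 were the high libraries, and the lowest mutant, at 112 CPM, lay just above the highest wildtype, at 108 CPM. The means were 133 ± 19.6 CPM in mutants and 98.2 ± 10.2 CPM in wildtypes (SD), or 1.35-fold higher in mutants (log2 fold change 0.44 with SE 0.113, adjusted p = 0.0144 by edgeR, exact permutation p = 0.0357). Loxl2 did not pass without wildtype 1 (log2 0.36, adjusted p = 0.113) or wildtype 3 (log2 0.44, adjusted p = 0.053), nor with the Gm42418 share as a covariate (log2 0.40, adjusted p = 0.0834), all by edgeR and over a range of 0.00295 to 0.113 across all alternatives. Among libraries high in Gm42418 it ran from 118 to 159 CPM in mutants against 87.9 CPM in wildtype 1, and among those low in it stood at 112 CPM in mutant 2 against 98.7 and 108 CPM in wildtypes.

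Vascular endothelial cells make basement membrane and are one source of both Pxdn and Loxl2, and their markers were also higher in mutants. The summed level of the 7 endothelial markers ran from 527 to 643 CPM in mutants and from 353 to 448 CPM in wildtypes. Of the 7, 6 were called higher, where 9.7% of all tested genes were, and none was at 0. The part of these cells in the rise of Pxdn and Loxl2 was not tested. In bulk tissue, a change in the number of cells and a change in RNA per cell cannot be told apart.

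The remaining lysyl oxidases, which act mainly on fibrillar collagen and elastin, did not pass the test, which does not show that their levels were equal. Lox (ENSMUSG00000024529, chromosome 18, 52516067 to 52529867, minus strand) had 820, 738, 771, 879, 622 and 749.9 CPM in mutants 1 to 6, against 677, 748 and 636 CPM in wildtypes 1 to 3. Mutant 5 was the lowest of all 9 libraries and mutant 4 the highest, so the groups overlapped. The means were 763 ± 86.8 CPM in mutants and 687 ± 56.4 CPM in wildtypes (SD), a fold of 1.11 with a 95% interval of 0.956 to 1.29 (edgeR adjusted p = 0.318, exact permutation p = 0.25).

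Loxl1 (ENSMUSG00000032334, chromosome 9, 58287738 to 58313186, minus strand) had 303, 326, 294, 255, 280.5 and 312 CPM in mutants 1 to 6, against 259, 282 and 284 CPM in wildtypes 1 to 3. Mutant 4, the highest library for Pxdn, Lox and Loxl4, was the lowest for Loxl1. The means were 295 ± 25.0 CPM in mutants and 275 ± 14.1 CPM in wildtypes (SD). The fold was 1.07 with a 95% interval of 0.949 to 1.21 (edgeR adjusted p = 0.429, exact permutation p = 0.274).

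Loxl3 (ENSMUSG00000000693, chromosome 6, 83034173 to 83052562, plus strand), whose loss in mice disturbs the palate and spine, had 25.3, 31.8, 32.8, 25.3, 27.1 and 27.8 CPM in mutants 1 to 6, against 23.4, 26.1 and 25.3 CPM in wildtypes 1 to 3. Mutants 1 and 4 lay within the wildtype range and the other 4 above it. The fold was 1.14 with a 95% interval of 0.970 to 1.33 (edgeR adjusted p = 0.244, exact permutation p = 0.143). Whether reads of Htra2, which overlaps it and fell, entered this count was not tested.

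Loxl4 (ENSMUSG00000025185, chromosome 19, 42593982 to 42612813, minus strand) rested on few reads, with 62, 62, 88, 104, 100 and 63 counts in mutants 1 to 6 and 42, 29 and 54 counts in wildtypes 1 to 3. On the CPM scale the 6 mutants gave 2.15, 1.90, 2.50, 3.71, 2.81 and 2.28, against 1.55, 1.09 and 1.94 in the 3 wildtypes. Only mutant 2 fell below the highest wildtype. The fold of 1.67 was the largest of the 7 genes but its 95% interval ran from 1.10 to 2.55, and it did not pass after adjustment (log2 0.74, SE 0.286, edgeR adjusted p = 0.0796, with an exact permutation p of 0.0238).

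Fibroblast-like cells of the corneal stroma are a main source of fibrillar collagen, and keratocyte markers fell. The summed level of the 8 keratocyte markers ran from 6287 to 8453 CPM in mutants and from 8718 to 11271 CPM in wildtypes. Of the 8, 5 were called lower, where 9.47% of all tested genes were, and none was at 0. The part of these cells in the levels of Lox, Loxl1, Loxl3 and Loxl4 was not tested.

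The makeup of the lysyl oxidase family was taken as the share of each gene in the summed counts per kilobase of all 5. The counting of reads that Loxl2 shares with Gm21451 is uncertain, so its share, and with it the others, is too. Lox made up 56.8% ± 3.04 of the family in mutants and 57.2% ± 2.21 in wildtypes (SD, n = 6 and 3). Loxl1 made up 32.0% ± 3.39 in mutants and 33.3% ± 1.86 in wildtypes. Loxl2 made up 8.77% ± 1.05 in mutants and 7.23% ± 0.441 in wildtypes, a difference of 1.54 percentage points (exact two-sided permutation p = 0.0595, adjusted over 5 genes 0.268). In 5 of 6 mutants the Loxl2 share was above every wildtype, and in mutant 2, at 7.38%, it lay within the wildtype range. Loxl3 and Loxl4 held 2.21% ± 0.304 and 0.217% ± 0.0555 in mutants, against 2.16% ± 0.0889 and 0.146% ± 0.0468 in wildtypes. After adjustment none of the 5 shares passed, and the lowest unadjusted p was that of Loxl2 (exact permutation test). The smallest possible exact permutation p, 0.0119, becomes 0.0595 after adjustment over 5 when a single share reaches it. A change in 1 share alone could therefore not pass, whatever its size. Without mutant 5, wildtype 1 or wildtype 2 the small difference for Lox was above 0, and without mutant 2 or 3 that for Loxl3 was below 0. The summed family level was 280.6 ± 19.3 CPM per kilobase in mutants and 251 ± 14.6 in wildtypes (exact permutation p = 0.0595).

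Transglutaminase 2 is a calcium-dependent enzyme found both inside cells and in the matrix, where it binds fibronectin. Tgm2 (ENSMUSG00000037820, chromosome 2, 158116402 to 158146436, minus strand) had 25.3, 34.4, 34.3, 28.4, 31.7 and 37.1 CPM in mutants 1 to 6, against 21.4, 22.9 and 23.3 CPM in wildtypes 1 to 3. The mutants were spread widely, with mutant 1 lowest and mutant 6 highest, and all lay above the wildtypes, which were close together. The means were 31.9 ± 4.34 CPM in mutants and 22.5 ± 1.02 CPM in wildtypes (SD), or 1.41-fold higher in mutants (log2 fold change 0.50 with SE 0.118, adjusted p = 0.00971 by edgeR, exact permutation p = 0.0119, the smallest possible). Among libraries high in Gm42418, Tgm2 ran from 25.3 to 37.1 CPM in mutants against 21.4 CPM in wildtype 1, and among those low in it stood at 34.4 CPM in mutant 2 against 22.9 and 23.3 CPM in wildtypes. Its call was lost without wildtype 1 (log2 0.46, edgeR adjusted p = 0.0766, over a range of 0.000757 to 0.0766 across all alternatives).

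Tgm2 is also expressed by endothelial cells and by macrophages that clear dead cells, and some markers of both were higher in mutants. The summed level of the 7 macrophage markers ran from 246 to 355 CPM in mutants and from 150 to 159 CPM in wildtypes. Of the 7, 4 were called higher, where 9.7% of all tested genes were, and none was at 0. Lyz2 alone was 142 ± 23.9 CPM in mutants and 30.9 ± 0.209 CPM in wildtypes (SD). Csf1r, C1qa and Aif1 were not called (edgeR adjusted p = 0.397, 0.582 and 0.875). The part of macrophages and endothelial cells in the rise of Tgm2 was not tested.

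**Figure D3:**
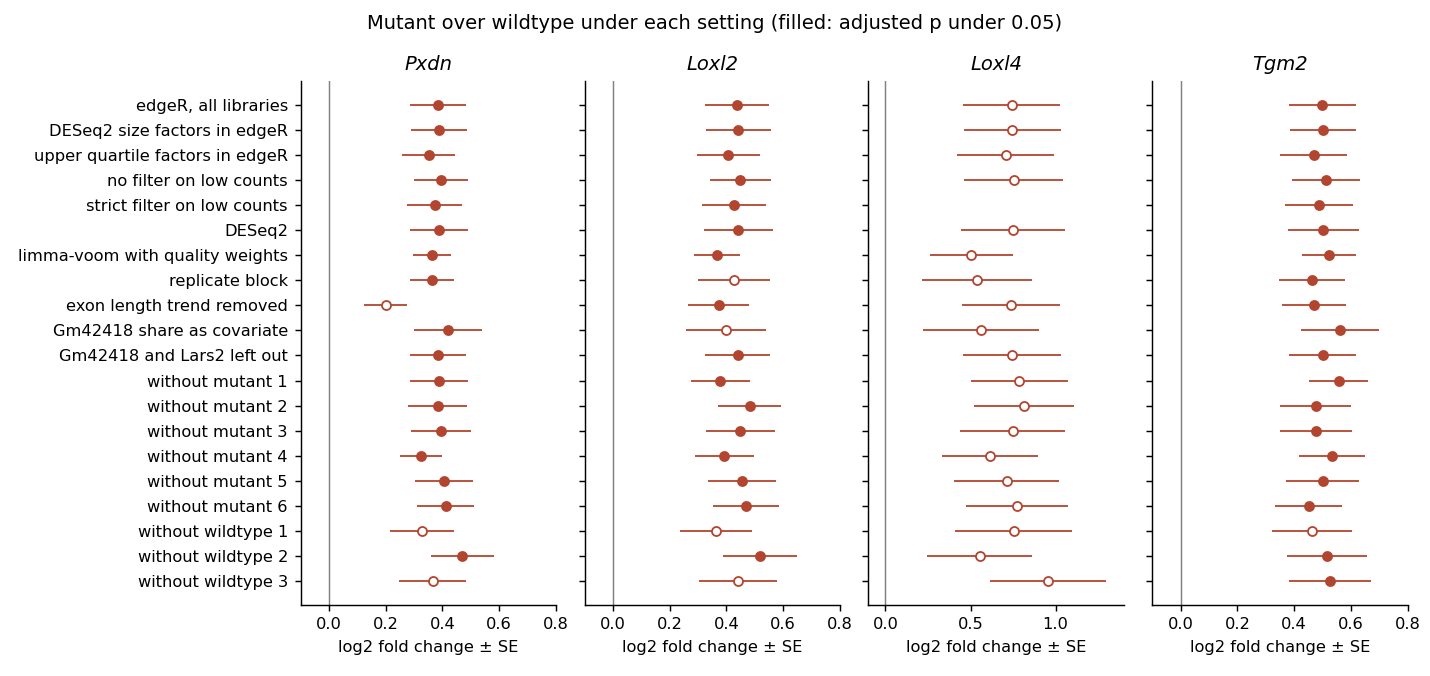
Log2 fold change of mutant over wildtype with its SE for Pxdn, Loxl2, Loxl4 and Tgm2 under each way of processing or library left out, filled where the adjusted p is under 0.05. Tgm2 is filled in all but the fit without wildtype 1, Loxl4 in none, and the value of Pxdn is lowest, at 0.20, with the exon length trend removed.

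Exon length is set against fold change for all tested genes because Pxdn is long. In the longest class of genes, with a median of 9700 bp of exon, the median log2 fold change was 0.21, and that of Pxdn was 0.38. Tgm2 has 4608 bp, near the middle class with its median of 4242 bp and a median log2 fold change of -0.01, and its own was 0.50. With the length trend removed, Loxl2 and Tgm2 passed the test (log2 0.37 and 0.47, edgeR adjusted p = 0.0292 and 0.0106).

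**Figure D4:**
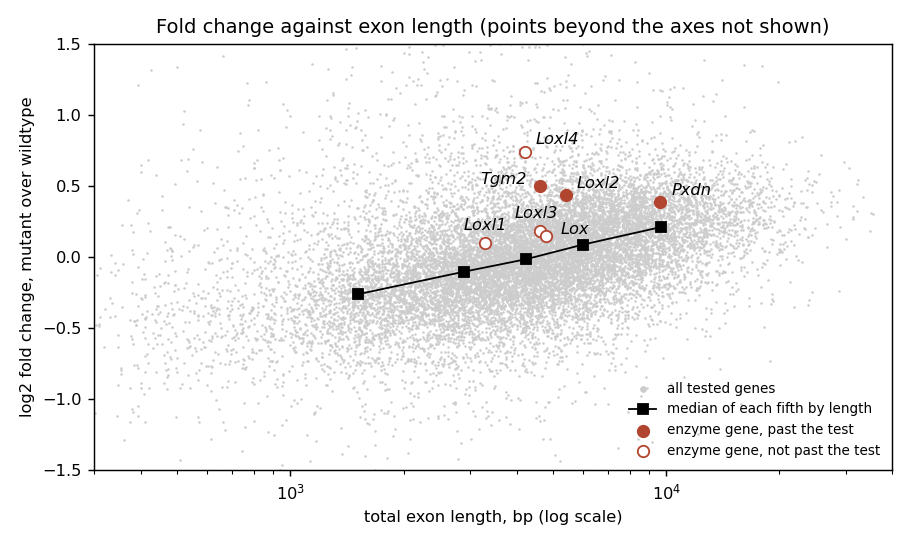
Log2 fold change of mutant over wildtype against total exon length (bp, log axis) for tested genes in grey, with the median of each of 5 length classes as squares and the 7 enzyme genes as circles, filled where they passed the test. The class medians run between -0.26 and 0.21, higher with length, and all 7 enzyme genes lie above the line through them.

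The substrates were tested in the same fit, in which 19.2% of all tested genes were called. Of the 6 type IV collagen chains 5 rose and 0 fell (median of the list 0.60 on the log2 scale), and Col4a1 itself stood at 1030 ± 82.7 CPM in mutants against 625 ± 92.7 CPM in wildtypes (fold 1.65, edgeR adjusted p = 0.000876). Col4a2, its partner chain, and Col4a5 rose by 0.67 and 0.47 on the log2 scale, and Col4a4 rose 1.62-fold but was not called without wildtype 1 (log2 0.62, adjusted p = 0.0989, edgeR). Of 11 fibril-forming collagens 0 rose and 2 fell, Col24a1 and Col27a1, 1.42-fold and 1.63-fold lower (median of the list -0.02 on the log2 scale). Without wildtype 1 neither was called (log2 -0.50 and -0.72, adjusted p = 0.0766 and 0.0544, edgeR), and without wildtype 2 Col24a1 was not (log2 -0.41, adjusted p = 0.0637, edgeR). With the Gm42418 share as a covariate neither was called (log2 -0.42 and -0.57, adjusted p = 0.0817 and 0.0558, edgeR). The 2 called of 11 are 18.2%, near the share over all genes. Col5a3 and Col5a2, chains of the minor fibrillar collagen V, had log2 fold changes of 0.38 and -0.14 and did not pass, though Col5a3 did without mutant 2 (log2 0.45, adjusted p = 0.0486, edgeR). The main substrates of Lox did not pass either: Col1a1 was 13874 ± 3490 CPM in mutants and 13371 ± 1825 CPM in wildtypes (SD, n = 6 and 3). Col1a2 was 15889 ± 3521 CPM in mutants and 17019 ± 2023 CPM in wildtypes. Col3a1 was 5108 ± 632 CPM in mutants and 4819 ± 644 CPM in wildtypes.

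Of 14 elastic fibre genes 5 rose and 0 fell (median of the list 0.06 on the log2 scale), or 35.7% called against 19.2% over all tested genes. With the exon length trend removed 3 of the 14 were called, and the share called over all tested genes was then 13.7%. The microfibril genes Fbn1 and Fbn2 rose 1.85-fold and 1.67-fold, Fbln2 1.36-fold and Ltbp4 1.28-fold. Fbln2 was not called without wildtype 1 (log2 0.27, adjusted p = 0.129, edgeR), and Ltbp4 not without wildtype 1 or 3 (log2 0.23 and 0.32, adjusted p = 0.187 and 0.110, edgeR) or with the length trend removed (log2 0.26, adjusted p = 0.0748, edgeR). Without wildtype 2 the value of Ltbp4 was 0.56. Elastin itself (Eln) was 465 ± 80.1 CPM in mutants and 363 ± 26.0 CPM in wildtypes, with an edgeR adjusted p of 0.0500378 that lies just above the threshold (log2 fold change 0.36). Its call turned on the processing: it passed without mutant 1 or 4 (log2 0.41 in both, adjusted p = 0.0194 in both, edgeR), by DESeq2 (adjusted p = 0.0185), by limma-voom (adjusted p = 0.00999) and in edgeR with DESeq2 size factors, either other filter, the covariate, or Gm42418 and Lars2 left out. It did not pass with upper quartile factors, nor with the length trend removed, where its log2 fold change was 0.21 (adjusted p = 0.291, edgeR).

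Ratios of an enzyme to its substrate within a library do not depend on the scaling between libraries. They can still carry the exon length trend, and no ratio was taken with that trend removed. Pxdn counts were 22.6%, 20.3%, 18.2%, 23.4%, 20.8% and 19.8% of the summed Col4a1 and Col4a2 counts in mutants 1 to 6, against 27.9%, 24.5% and 25.8% in wildtypes 1 to 3. Every mutant ratio was below every wildtype ratio, with Pxdn itself higher and these chains higher still. The log2 difference was -0.33, with an exact two-sided permutation p of 0.0119, the smallest possible, and 0.0595 after adjustment over the 5 ratios, the lowest that a single ratio at that limit can reach. Against Col4a1 alone the log2 difference was -0.34, and against all 6 type IV collagen chains it was -0.26 (exact permutation, adjusted p = 0.0298 and 0.179). The adjusted value for Col4a1 rested on the ratio of Loxl1 to Fbn1, adjusted with it, also reaching the smallest exact p.

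The other 4 ratios overlapped between the groups. Loxl2 was 7.24% ± 1.28 of the Col4a1 and Col4a2 counts in mutants and 8.68% ± 0.491 in wildtypes (SD, exact permutation p = 0.119). Lox was 2.25% ± 0.369 of the summed Col1a1, Col1a2 and Col3a1 counts in mutants and 1.96% ± 0.0853 in wildtypes (exact permutation p = 0.298). Loxl1 was 64.6% ± 9.94 of the Eln counts in mutants and 75.8% ± 2.73 in wildtypes (exact permutation p = 0.107), with mutant 1 the only mutant above the wildtype range. Against Fbn1, a microfibril gene that itself rose 1.85-fold, the log2 difference of Loxl1 was -0.78 in place of -0.25 against Eln. It passed (exact permutation, adjusted p = 0.0298). With the exon length trend removed, Loxl1 and Eln had log2 fold changes of 0.15 and 0.21, against 0.10 and 0.36 with it (edgeR). Tgm2 was 3.53% ± 0.946 of the counts of the fibronectin gene Fn1 in mutants and 4.65% ± 0.713 in wildtypes (exact permutation p = 0.131), a log2 difference of -0.43 that was -0.14 against Nid1. Adjusted over the 5 ratios, these p-values were 0.164 for Loxl2, Loxl1 and Tgm2 and 0.298 for Lox.

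**Figure D5:**
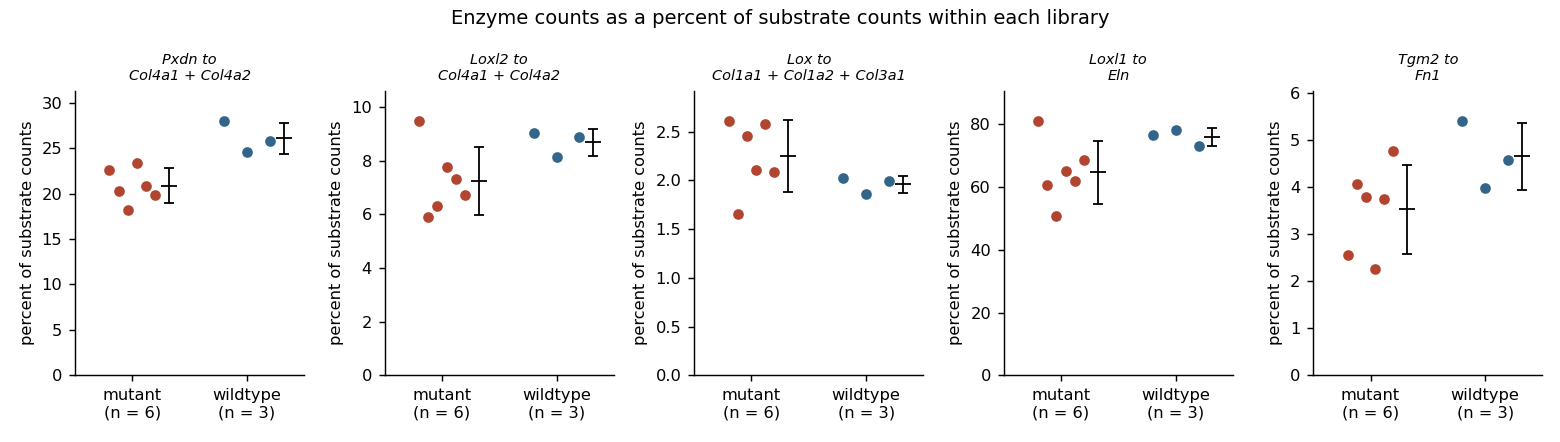
Enzyme counts as a percent of substrate counts within each library (axes from 0), 1 point per library, with the mean and SD beside each group. For Pxdn the 6 mutants lie between 18.2% and 23.4%, all below the wildtypes, and the other 4 ratios overlap between the groups.

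Genes that prepare or assist crosslinking were described from lists. Of 16 tested genes for lysine modification, lysyl oxidase activation and copper supply, 2 rose and 1 fell (median of the list 0.01 on the log2 scale). The 3 called are 18.8% of the list, near the 19.2% called over all tested genes. Atp7a, the pump that loads copper onto lysyl oxidases in the secretory pathway, rose 1.46-fold to 70.4 ± 8.65 CPM in mutants, against 48.1 ± 4.35 CPM in wildtypes (edgeR adjusted p = 0.00428). Fn1, which binds both lysyl oxidase and transglutaminase 2, rose 1.90-fold to 937 ± 173 CPM in mutants, against 494 ± 91.0 CPM in wildtypes (edgeR adjusted p = 0.00153). Colgalt2, which adds galactose to hydroxylysine of collagen, fell 1.43-fold and was not called without wildtype 1 (log2 -0.47, adjusted p = 0.0839, edgeR) or with the Gm42418 share as a covariate (log2 -0.45, adjusted p = 0.0622, edgeR). Atox1, the chaperone that hands copper to Atp7a, was 44.8 ± 8.86 CPM in mutants and 58.3 ± 2.20 CPM in wildtypes and did not pass (edgeR adjusted p = 0.0737), though it did without mutant 2 or 4 (log2 -0.44 and -0.27, adjusted p = 0.0463 and 0.0290, edgeR), by DESeq2 (adjusted p = 0.0484) and by limma-voom (adjusted p = 0.0136). With the length trend removed its log2 fold change was -0.082, against -0.38.

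Of 9 tested peroxide source genes 3 rose and 0 fell (median of the list 0.14 on the log2 scale), or 33.3% called against 19.2% over all tested genes. Sod3, the extracellular superoxide dismutase that makes peroxide, rose 1.54-fold, Cybb, the oxidase subunit of phagocytes, 1.72-fold, and Ero1lb, an oxidase of the endoplasmic reticulum, 1.42-fold. Without wildtype 1 none of the 3 was called (log2 0.50, 0.55 and 0.50, adjusted p = 0.0777, 0.121 and 0.106 for Sod3, Cybb and Ero1lb, edgeR), and without wildtype 2 Ero1lb was not (log2 0.45, adjusted p = 0.0683, edgeR). Ero1lb was also not called with the length trend removed or with the Gm42418 share as a covariate (log2 0.40 and 0.50, adjusted p = 0.0724 and 0.0752, edgeR). Cybb is a gene of the same macrophages, of whose 7 markers 4 rose, and the part of these cells in it was not tested. Sod1, the cytosolic dismutase, was 172 ± 33.9 CPM in mutants and 225 ± 42.6 CPM in wildtypes and did not pass (edgeR adjusted p = 0.0944), though it did without mutant 2 or wildtype 2 (log2 -0.46 and -0.52, adjusted p = 0.0383 and 0.0369, edgeR), by DESeq2 (adjusted p = 0.0496) and by limma-voom (adjusted p = 0.0307).

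Of the other transglutaminase and animal haem peroxidase genes, 6 of 14 had enough counts to be tested, of which 1 rose and 0 fell (median of the list 0.28 on the log2 scale), or 16.7% called, near the 19.2% over all tested genes. F13a1, the factor XIII subunit made by tissue macrophages, rose 1.21-fold to 63.9 ± 5.56 CPM in mutants, against 52.6 ± 3.27 CPM in wildtypes (edgeR adjusted p = 0.0418), and lost its call without any 1 of mutants 2, 3 and 6 or wildtypes 1 and 3 (log2 between 0.25 and 0.28, adjusted p between 0.0617 and 0.187, edgeR). F13a1 was also not called with the length trend removed, where its log2 fold change was 0.17 in place of 0.28 (adjusted p = 0.182, edgeR), with upper quartile factors (adjusted p = 0.0525, edgeR) or with the covariate (adjusted p = 0.0860, edgeR). Tgm1, the transglutaminase of surface epithelia, was 51.9 ± 5.09 CPM in mutants and 43.3 ± 3.14 CPM in wildtypes (edgeR adjusted p = 0.0751), and passed without mutant 5 (log2 0.30, adjusted p = 0.0399, edgeR) and with the length trend removed (log2 0.32, adjusted p = 0.0412, edgeR). Ptgs1, a haem peroxidase of prostaglandin synthesis, was 35.6 ± 3.08 CPM in mutants and 29.2 ± 1.98 CPM in wildtypes (edgeR adjusted p = 0.0512). Ptgs1 passed with DESeq2 size factors, the strict filter, the length trend removed, Gm42418 and Lars2 left out, or DESeq2, at adjusted p between 0.0286 and 0.0488 (edgeR and DESeq2), and the red cell gene Epb42 was under 1 CPM in both groups. Of 13 partners and substrates of transglutaminase 2, 6 rose and 1 fell (median of the list 0.22 on the log2 scale). The 7 called are 53.8% of the list, against 19.2% over all tested genes. Besides Fn1 and Fbn1, those that rose included Spp1 and Nid1, up 1.64-fold and 1.55-fold.

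The genes whose profile over the 9 libraries was most like that of each enzyme gene were found by the root mean square difference of log2 CPM, each gene centred on its own mean, among genes of at least 10 CPM. For Pxdn these were Kdm3b, Itga6 and Maml1, with differences of 0.0437, 0.0506 and 0.0536, against a median of 0.259 over 9777 genes. For Loxl2 they were Pml, Dysf and Npat, with differences of 0.0618 to 0.0710, and for Tgm2 they were Acot2, Col4a5 and Kdm7a, with differences of 0.101 to 0.109. Lox was nearest to Sec24d, Mpdz and Malt1 (0.0540 to 0.0671), Loxl1 to Rhoj, Capn1 and Unc93b1 (0.0400 to 0.0530), and Loxl3 to Sgsm3, Nfe2l1 and Emilin1 (0.0503 to 0.0590). For Loxl4, with its few counts, the nearest were Bach2, Nup155 and Gxylt1, with larger differences of 0.180 to 0.212. Its own root mean square deviation from its mean was also wide, at 0.462 against 0.277 for Tgm2. The median difference of genes from Loxl4 was 0.478. All 9 libraries share these genes' depth and scaling, so likeness is a description only.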

How the data were processed

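The authors deposited a table of read counts (whole numbers, not normalized) with 1 row per Ensembl gene and 1 column for each sample, and 0 columns had no sample. Per the labels' protocols, dissected tissue was stabilised in RNAlater before RNA was prepared. The submitters' processing notes name GRCm38 and the programs DESeq2 1.6.3, HTSeq 0.6.1 and STAR 2.6.1 without their roles, and the annotation release and strand setting are not stated. Symbols, positions and exon lengths came from GENCODE M21 (GRCm38), which held 34490 of 35275 identifiers.

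Counts were tested with edgeR 4.0.16 (R 4.3.3): TMM factors, the default filter by group, a robust quasi-likelihood fit on genotype over all 9 libraries and Benjamini-Hochberg adjustment at 0.05. Values per gene are CPM with TMM library sizes, and log2 CPM used a prior count of 2. Ratios and shares were tested by exact permutation over all 84 splits. Intervals at 95% came from the fit's SE. Alternatives used DESeq2 1.42.0, limma 3.58.1 and mgcv 1.9.3, the last to fit the exon length trend. Fits were tested on simulated data. Counts of same-genotype libraries differed beyond sampling noise (chi-square per degree of freedom of at least 14.7), so none is a copy of another. Each library was taken as 1 replicate, though this check cannot show that the pools came from different mice. Floors of 3 counts cover counting error only. The enzyme genes and lists were chosen with earlier results of these data known. Genes named were the 7 enzyme genes, ratio substrates, up to 4 tested genes with the lowest p in each related list, and the 3 nearest profiles, leaving out clone names. Alternatives changed the scaling, filter, tool, covariates, ratio denominators or library set. Cell markers, Htra2, Rprd1b and Gm21451 are named beside the results they touch.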

Additional observations from a re-analysis of the deposited data

Results flagged for a closer look

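In 47 sets of 6 mutant values, 3 held a library whose gap to the next was above the limit of Dixon's test, where chance gives about 1 in 20. Pxdn was 469 CPM in mutant 4, with the next highest mutant at 386 CPM. Fbn1 was 299.7 CPM in mutant 4, with the next at 198 CPM, and Fbn2 was 502 CPM in mutant 4, with the next at 362 CPM. Without mutant 4 the log2 fold change of Pxdn was 0.32 and it still passed the test (edgeR adjusted p = 0.00751).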

How the results depend on the processing

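With all 9 libraries, 3034 genes passed the test in the main analysis, against 4694 by limma-voom, 1485 with a replicate block and 1626 with the Gm42418 share as a covariate. Leaving out 1 library gave 538 to 3265 genes overall and 0 to 3 of the 7 enzyme genes. Of the enzyme genes, Loxl2 was not called with the replicate block (log2 0.43, adjusted p = 0.0610, edgeR) or the covariate (0.40), and Pxdn was not called with the exon length trend removed (0.20). Removing that trend left 913 genes higher and 1245 lower, against 1535 and 1499. Leaving out 1 library, Pxdn ran from 0.32 to 0.47, Loxl2 from 0.36 to 0.52 and Tgm2 from 0.45 to 0.56. The block also ended the calls of Ero1lb (adjusted p = 0.0961), Cybb (0.0665), F13a1 (0.0734) and Ltbp4 (0.0534) and made that of Eln (0.0222), all by edgeR. Mutants 4, 5 and 6 have no wildtype of the same number, so under the block they add nothing to the genotype estimate. The labels give no link between same-numbered libraries beyond the number. Such libraries correlated at 0.0947, 0.0258 and -0.104 in their deviations from group means. With 3 pairs these values cannot show whether same-numbered libraries were prepared together. Upper quartile scaling moved the median of all genes to -0.03. The strict filter removed Loxl4, which then had no value. Called elastic fibre genes numbered 3 with the length trend removed (5 in the main analysis), and 2 to 6 leaving out 1 library. Fibril-forming collagens numbered 0 with the covariate (main 2), and 0 to 3 leaving out 1 library. The lysine modification list gave 5 by limma-voom (main 3), and type IV collagen chains 3 to 6 leaving out 1 library (main 5). Other transglutaminases and peroxidases (main 1) numbered 2 with DESeq2 size factors, the strict filter, DESeq2, the length trend removed or Gm42418 and Lars2 left out, 0 with upper quartile factors, the replicate block or the covariate, and 0 to 2 leaving out 1 library. The 2 with the length trend removed were Tgm1 and Ptgs1, and F13a1 was not among them. Peroxide sources (main 3) numbered 1 with the strict filter, which removed Cybb and Ero1lb from the test. They numbered 1 with the replicate block, and 0 to 4 leaving out 1 library. With another gene as the denominator, the log2 ratios of Loxl1 to the microfibril gene Fbn1 (-0.78) and of Pxdn to Col4a1 (-0.34) passed. Both were at the smallest exact p and so had a lower adjusted value. Pxdn to all 6 type IV collagen chains (-0.26, adjusted p = 0.179, exact permutation) did not pass. No ratio was taken with the exon length trend removed. Signs turned for Col1a1 (-0.055) and Col3a1 (-0.10) with the length trend removed and for Col1a2 (0.025) with the covariate, and none of these passed. Leaving out 1 library, Col1a1 ran from -0.042 to 0.18, Col1a2 from -0.19 to 0.00085, the Lox share from -1.69 to 0.32 points and the Loxl3 share from -0.016 to 0.12 points. The cause of these changes was not tested. With 3 wildtype libraries the calls rest on few controls, and Loxl4, at 29 to 104 counts per library, is limited by depth.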
